A study of Rattus norvegicus with 18 samples.

Results

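The genes described here encode subunits of the GABA-A receptor, the chloride channel that carries most fast inhibition in the brain. The list names 7 subunits: Gabra2, Gabra3, Gabra4 and Gabra5 (alpha subunits), Gabrb1 and Gabrb2 (beta subunits) and Gabrd (the delta subunit). They were found by the gene symbol of each array probe. Of the 7 genes, 6 had a tested probe, with 8 probes in all, out of 12180 named genes and 33800 probes tested. No probe was assigned to Gabra2 by this rule, and that gene is not analysed here.

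Adult male Wistar rats received scopolamine methylnitrate and then a single injection of pilocarpine, a muscarinic agonist that brings on status epilepticus (SE). SE was ended with diazepam. Hippocampi were taken 3 days after SE (D3, 5 rats), 7 days after SE (D7, 5 rats) and soon after the first spontaneous seizure (Chronic, 5 rats). The Control group was 3 saline-treated rats, 1 for each of these times, and each rat had its own 1-colour CodeLink array, which makes 18 arrays. The methods state 5 rats per experimental group and a saline group for each time, and 1 control array per time was available here. Only rats that reached SE and survived entered the pilocarpine groups, and saline rats differed from them in every drug given, so that the effects of SE, of each drug and of survival cannot be told apart. The control arrays of the 3 times were taken as 1 group of 3, since 1 control array per time leaves no spread within a time.

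A GABA-A receptor is a ring of subunits, most often alpha and beta subunits together with a gamma or delta subunit. GABA binds between beta and alpha subunits, and benzodiazepines bind between alpha and gamma subunits. Many receptors with a gamma subunit cluster at synapses with the scaffold protein gephyrin. Those with the delta subunit lie outside the synapse and carry a steady, tonic inhibition. In the rodent hippocampus, alpha5 is typical of pyramidal cell dendrites, and alpha4 and delta are typical of dentate granule cells.

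Values are normalized intensities, on a linear scale on which the median gene spot of each array is close to 1. The arrays correlated with each other at r of 0.949 to 0.970 within a group and of 0.928 to 0.968 between groups. Microglial markers were the most visible feature of the pilocarpine tissue, since 10 of 10 rose in D3, 10 of 10 in D7 and 9 of 10 in Chronic. Choroid plexus markers varied from dissection to dissection. Their summed level was 4.11 to 27.1 in D3, 4.48 to 43.5 in D7, 7.10 to 212 in Chronic and 12.5 to 247 in Control, and their part in the results was not tested. Markers of the thalamus, which adjoins the hippocampus, summed to 15.5 to 17.1 in D3, 16.2 to 22.2 in D7, 15.8 to 36.2 in Chronic and 18.02 to 19.02 in Control. Oligodendrocyte markers did not pass at any time (0 of 5, and with quantile normalization 2, 1 and 1 as higher), and 1 of 3 endothelial markers, Flt1, was lower at each of the 3 times by its first probe and not by its others.

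The stretch of DNA upstream of each start site is shown for 4 subunits, because the genes differ so much in base composition there. The sequences are the 250 bases before the RefSeq start of each gene in the rat build GRCr8, written in the direction of the gene, and all 6 measured genes had an entry. Capitals mark matches to 4 short motifs searched on both strands: the cAMP response element half-site TGACG, the early growth response (EGR) site GCGNGGGCG, the GC box GGGCGG and the TATA box TATAAA. Gabra5 lies at chr1:117516607-117516856 (minus strand), Gabrd at chr5:171252710-171252959 (minus strand), Gabra3 at chrX:155543871-155544120 (minus strand) and Gabra4 at chr14:36944497-36944746 (plus strand).
Gabra5: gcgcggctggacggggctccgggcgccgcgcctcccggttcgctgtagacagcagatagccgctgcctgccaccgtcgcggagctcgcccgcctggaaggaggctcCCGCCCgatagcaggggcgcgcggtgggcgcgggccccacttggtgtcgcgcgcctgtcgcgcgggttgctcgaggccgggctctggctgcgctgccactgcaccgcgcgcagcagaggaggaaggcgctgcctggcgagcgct
Gabrd: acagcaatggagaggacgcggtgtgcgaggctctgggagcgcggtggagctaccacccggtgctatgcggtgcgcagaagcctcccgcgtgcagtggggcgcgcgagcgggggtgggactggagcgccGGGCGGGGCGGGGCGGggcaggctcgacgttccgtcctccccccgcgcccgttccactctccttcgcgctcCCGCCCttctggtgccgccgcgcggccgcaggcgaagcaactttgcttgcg
Gabra3: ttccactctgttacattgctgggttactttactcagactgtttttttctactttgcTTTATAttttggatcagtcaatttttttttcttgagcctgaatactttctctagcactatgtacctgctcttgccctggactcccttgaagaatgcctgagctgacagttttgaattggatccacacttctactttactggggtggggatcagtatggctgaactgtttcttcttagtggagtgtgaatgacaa
Gabra4: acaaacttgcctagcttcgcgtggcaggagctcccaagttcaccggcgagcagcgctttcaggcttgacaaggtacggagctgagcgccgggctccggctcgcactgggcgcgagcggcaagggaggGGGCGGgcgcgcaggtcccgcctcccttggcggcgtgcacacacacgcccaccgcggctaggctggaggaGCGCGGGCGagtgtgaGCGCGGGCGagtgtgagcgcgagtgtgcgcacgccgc

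The region before Gabra5 was 76.4% G and C and held 37 CG dinucleotides, that of Gabrd 74.0% and 35, and that of Gabra4 71.6% and 33. Over all 33469 promoters of the same length the median was 51.2% G and C, with 5 CG dinucleotides. The region before Gabra3 was different, with 40.4% G and C and no CG dinucleotide. Gabrb1 had 49.2% and Gabrb2 43.2%, with 8 CG dinucleotides each. The GC box was found 4 times before Gabrd, with overlapping copies, and once each before Gabra5 and Gabra4, and 30.5% of all promoters held at least 1. Gabra4 had 2 EGR sites, a motif in 4.29% of all promoters, and none of the other 5 genes had one in this window. Gabra3 alone among the 6 had a TATA box match, which 12.9% of all promoters held on either strand. It lay on the opposite strand (TTTATA) and far from the start site. The cAMP response element half-site, in 18.2% of all promoters, was in none of the 6. These matches describe letters in a window and say nothing of binding.

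Of the 6 subunits, 5 were lower in pilocarpine-treated hippocampi at 1 or more times, and none was higher by its first probe. In D3, 4 of 6 passed (an adjusted p under 0.05 in limma, over all 33800 probes), all of them lower, namely Gabra3, Gabra5, Gabrb2 and Gabrd. In D7, 5 of 6 passed, all lower, with Gabrb1 added. In Chronic, 2 of 6 passed, Gabra5 and Gabrb1, both lower. Of all probes, 14.2% passed as lower and 7.91% as higher in D3, 11.9% and 6.20% in D7, and 9.80% and 4.86% in Chronic. These shares include dim probes and were larger among better detected ones. With good spots only, 5574, 4842 and 4069 of 21939 probes passed as lower in D3, D7 and Chronic. In that fit 4, 4 and 3 of 5 subunits passed. Over all probes the split of lower and higher calls, 4815 and 2673 in D3, 4021 and 2097 in D7 and 3311 and 1643 in Chronic, became 2913 and 2883, 1547 and 1878, and 1254 and 1463 with quantile normalization, and 4003 and 3063, 2041 and 2628, and 1752 and 2117 with scaling at the 75th percentile. The median log2 fold change of the 6 subunits was -0.66 in D3, -0.68 in D7 and -0.51 in Chronic, against -0.12, -0.06 and -0.08 over all probes. The list was chosen with earlier results of these data known, so these counts and medians are not independent evidence of a decrease. None of the 6 changed by 2-fold or more, a size that 4.59% of all probes reached together with the p threshold in D3, 3.49% in D7 and 2.89% in Chronic.

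In 5 of the 6 subunits every pilocarpine array was below every Control array, at each of the 3 times. Gabra4 was the exception. The share of all probes with this pattern was 22.7% in D3, 16.8% in D7 and 16.4% in Chronic. With the time-matched Control array alone, an arm of 1 array, the fold changes of the 6 genes lay between -1.10 and -0.41 in D3, -0.98 and 0.10 in D7, and -0.74 and -0.12 in Chronic, and limma passed 0 of 6 at each time (3, 4 and 1 at an unadjusted p under 0.05), while over all probes 1.73%, 0.512% and 0.0506% passed as lower in that fit. With quantile normalization 2 of 6 passed in D3, 3 of 6 in D7 and 0 of 6 in Chronic (4 at an unadjusted p under 0.05).

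**Figure D1:**
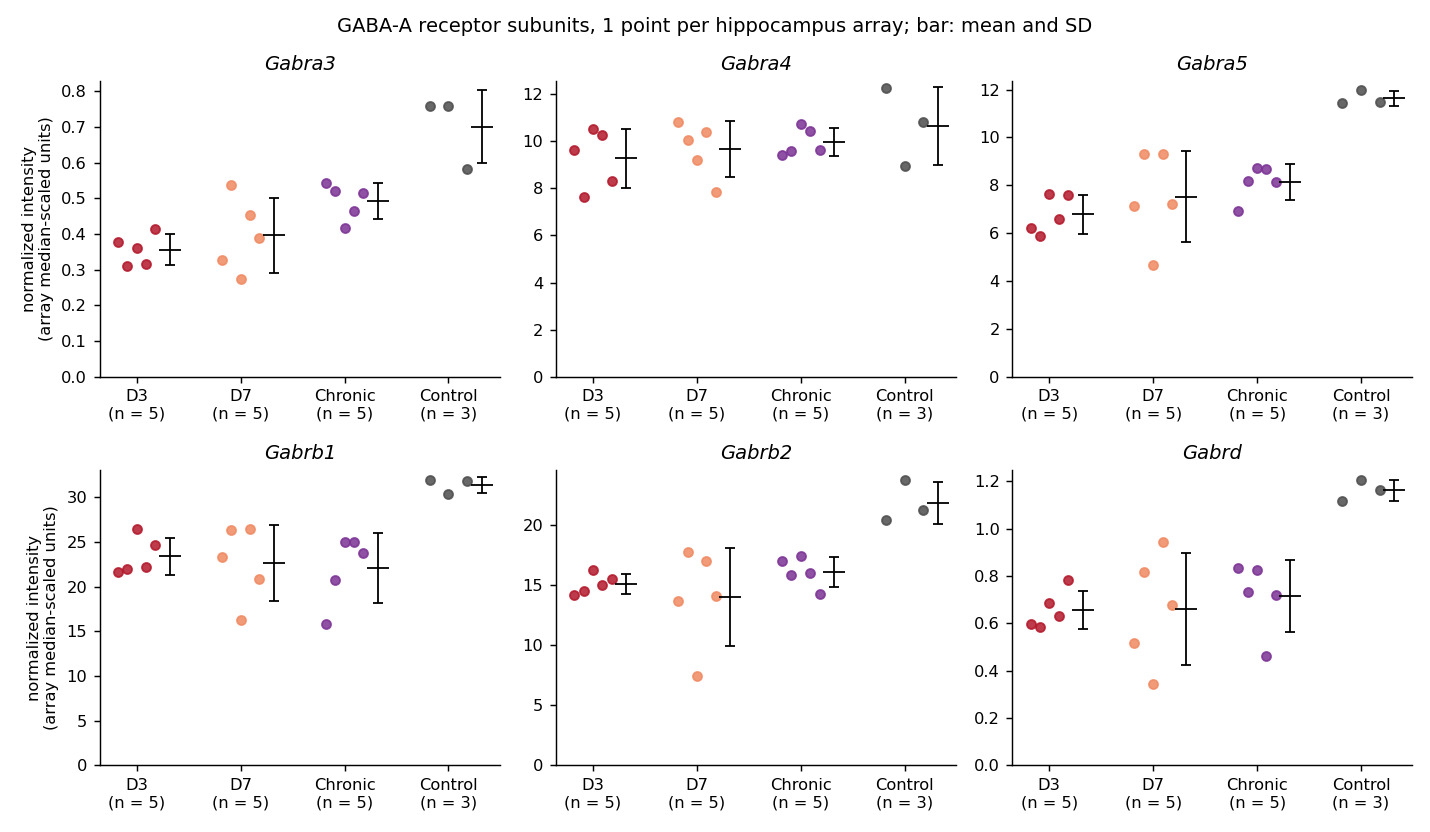
Normalized intensity (linear, array median near 1) of the first probe of each measured subunit, 1 point per array, in D3, D7, Chronic (5 arrays each) and Control (3 arrays), with the mean and SD beside the points. Each axis starts at 0, and in every panel but Gabra4 all pilocarpine points lie below all Control points.

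Among the alpha subunits, Gabra5 had the most uniform decrease. The alpha5 subunit forms extrasynaptic receptors on pyramidal cells. Its intensities were 6.21, 5.88, 7.65, 6.61 and 7.60 in D3, 7.15, 9.32, 4.68, 9.30 and 7.20 in D7, and 6.91, 8.18, 8.73, 8.69 and 8.15 in Chronic, against 11.4, 11.99 and 11.5 in Control. The Control arrays lay close together and apart from all 15 others, and the lowest of the pilocarpine values was that of D7 replicate 33. The log2 fold change was -0.79 ± 0.17 (SE) in D3 (adjusted p = 0.00257), -0.67 ± 0.17 in D7 (adjusted p = 0.0110) and -0.52 ± 0.17 in Chronic (adjusted p = 0.0414), or 0.580, 0.629 and 0.697 of the Control level. The D3 and D7 decreases passed without any 1 array. The Chronic decrease did not pass without D3 replicate 14, Chronic replicate 41, 42 or 45, or any 1 Control array (adjusted p up to 0.132).

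Gabra3 encodes an alpha subunit that is dim on these arrays. Its intensities were 0.377, 0.311, 0.362, 0.317 and 0.415 in D3, 0.328, 0.539, 0.273, 0.452 and 0.390 in D7, and 0.542, 0.521, 0.418, 0.465 and 0.514 in Chronic, against 0.760, 0.759 and 0.582 in Control. Spots were flagged as low signal in 2 of 5 arrays in D3 and 3 of 5 in D7, and in none of Chronic or Control. All D3 values were below all Chronic values, and both groups were below Control. The log2 fold change was -0.97 ± 0.21 in D3 (adjusted p = 0.00273) and -0.85 ± 0.21 in D7 (adjusted p = 0.0101), and the D3 value corresponds to 0.509 of the Control level. In Chronic it was -0.50 ± 0.21 and did not pass (adjusted p = 0.111). The D7 call was lost without Control replicate 26 (adjusted p = 0.0518) or Control replicate 36 (adjusted p = 0.0534).

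Gabra4, the alpha partner of delta in granule cells, was the 1 measured subunit that passed at no time. Its intensities were 9.64, 7.63, 10.5, 10.3 and 8.32 in D3, 10.8, 10.1, 9.21, 10.4 and 7.85 in D7, and 9.40, 9.57, 10.7, 10.4 and 9.65 in Chronic, against 12.3, 8.95 and 10.8 in Control. The Control arrays spanned most of the range of the pilocarpine arrays. The log2 fold change was -0.20 in D3 (95% confidence interval -0.47 to 0.07, adjusted p = 0.290), -0.14 in D7 (-0.40 to 0.13, adjusted p = 0.494) and -0.09 in Chronic (-0.36 to 0.18, adjusted p = 0.698). The intervals leave room for a decrease to 0.723 of the Control level in D3. Whether Gabra4 differs from the other subunits in its change was not tested. The sign of its D7 and Chronic values turned with the scaling of the arrays, to 0.051 in D7 and 0.11 in Chronic with quantile normalization.

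**Figure D2:**
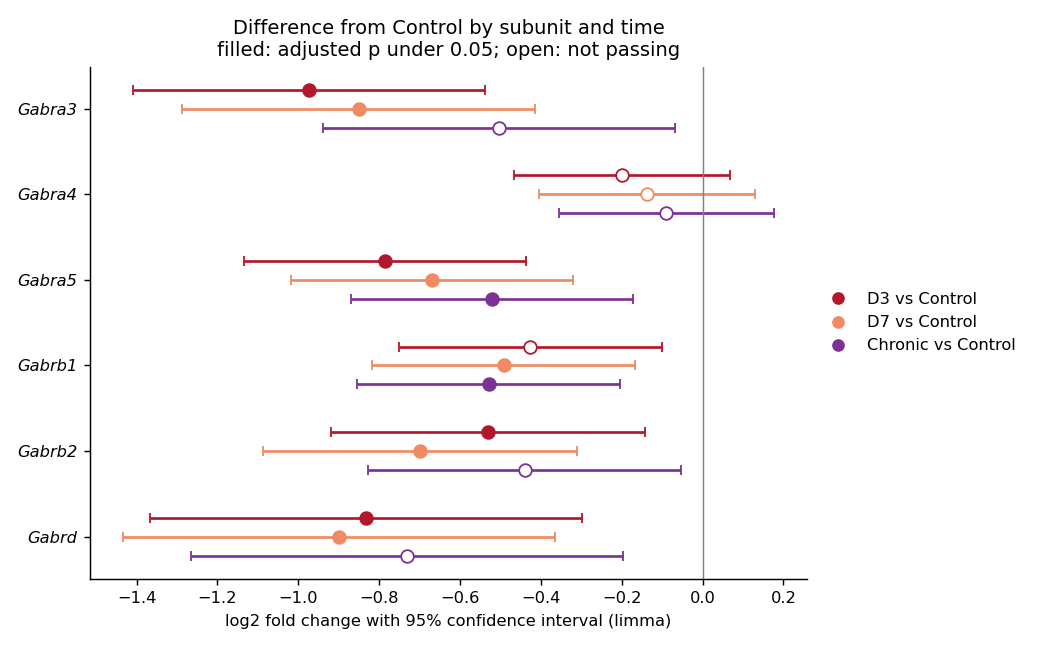
Log2 fold change of each subunit (first probe) in D3, D7 and Chronic relative to Control, with the 95% confidence interval from limma over all 18 arrays. Filled points passed at an adjusted p under 0.05 (4 subunits in D3, 5 in D7 and 2 in Chronic), and the intervals of Gabra4 cross 0 at all 3 times.

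Gabrd encodes the delta subunit of tonic inhibition. Its intensities were 0.598, 0.583, 0.684, 0.629 and 0.783 in D3, 0.519, 0.816, 0.343, 0.943 and 0.678 in D7, and 0.834, 0.730, 0.824, 0.460 and 0.721 in Chronic, against 1.11, 1.203 and 1.16 in Control. All Control values were higher than the highest pilocarpine value, while the D7 arrays ranged over more than the other groups. The log2 fold change was -0.83 ± 0.26 in D3 (adjusted p = 0.0246) and -0.90 ± 0.26 in D7 (adjusted p = 0.0212), or 0.562 and 0.536 of the Control level. In Chronic it was -0.73 ± 0.26, which did not pass (adjusted p = 0.0602). The D3 and D7 calls were lost without any 1 of the 3 Control arrays (adjusted p of 0.0564 to 0.0822). The Chronic decrease passed without D7 replicate 33 (adjusted p = 0.0179) or D7 replicate 34 (adjusted p = 0.0444), which enter that comparison only through the shared spread.

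The beta subunits carry part of the GABA binding site, and both beta genes had 2 probes. For Gabrb1, the first probe, the brighter one over the 18 arrays, read 21.7, 22.01, 26.4, 22.2 and 24.6 in D3, 23.3, 26.3, 16.3, 26.5 and 20.9 in D7, and 15.8, 20.7, 25.005, 24.9 and 23.7 in Chronic, against 31.9, 30.3 and 31.8 in Control. Control arrays were within a narrow range above all others. The log2 fold change was -0.43 ± 0.16 in D3 (adjusted p = 0.0552, not passing), -0.49 ± 0.16 in D7 (adjusted p = 0.0345) and -0.53 ± 0.16 in Chronic (adjusted p = 0.0286). Without D7 replicate 33 or 35 or any 1 Control array the D7 call was lost (adjusted p up to 0.105), and without Chronic replicate 41 or 42 or any 1 Control array the Chronic call was lost (adjusted p up to 0.0977). The second probe of Gabrb1 read 0.899 to 1.19 in D3, 1.0046 to 1.33 in D7 and 0.911 to 1.16 in Chronic, against 1.18 to 1.31 in Control. Its log2 fold changes were -0.26, -0.04 and -0.28, and none passed (adjusted p = 0.177, 0.864 and 0.170).

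The 2 probes of Gabrb2 gave opposite signs. The first probe, designed on an expressed sequence tag and named by the platform annotation, read 14.1, 14.5, 16.2, 15.03 and 15.5 in D3, 13.7, 17.7, 7.47, 17.0 and 14.1 in D7, and 17.0, 15.9, 17.4, 15.96 and 14.2 in Chronic, against 20.4, 23.8 and 21.2 in Control. All 15 pilocarpine arrays were below all 3 Control arrays, and D7 replicate 33 was the lowest by far. Its log2 fold change was -0.53 ± 0.19 in D3 (adjusted p = 0.0457) and -0.70 ± 0.19 in D7 (adjusted p = 0.0150). In Chronic it was -0.44 ± 0.19 and did not pass (adjusted p = 0.117). The D3 call is close to the threshold and was lost in 13 of the 18 fits that left out 1 array (adjusted p up to 0.163), and the D7 call without Control replicate 36 (adjusted p = 0.0735).

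The second probe of Gabrb2, designed on the RefSeq messenger RNA, was dim. It read 0.619, 0.490, 0.590, 0.489 and 0.487 in D3, 0.334, 0.516, 0.342, 0.430 and 0.345 in D7, and 0.202, 0.377, 0.495, 0.296 and 0.335 in Chronic, against 0.301, 0.378 and 0.234 in Control. All D3 arrays were above all Control arrays, while D7 and Chronic overlapped with Control. The spots were flagged good in 5 of 5 arrays in D3, but as low signal in 3 of 5 in D7, 3 of 5 in Chronic and 2 of 3 in Control. The log2 fold change in D3 was 0.83 ± 0.25 (adjusted p = 0.0233), and those in D7 and in Chronic were 0.38 and 0.13 (adjusted p = 0.327 and 0.786). The D3 rise did not pass without D3 replicate 11 (adjusted p = 0.0506), Control replicate 26 (0.0672) or Control replicate 47 (0.119). With the mean of both probes the D3 value of Gabrb2 was 0.15 (adjusted p = 0.590), so that the direction for this gene in D3 depends on the probe.

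**Figure D3:**
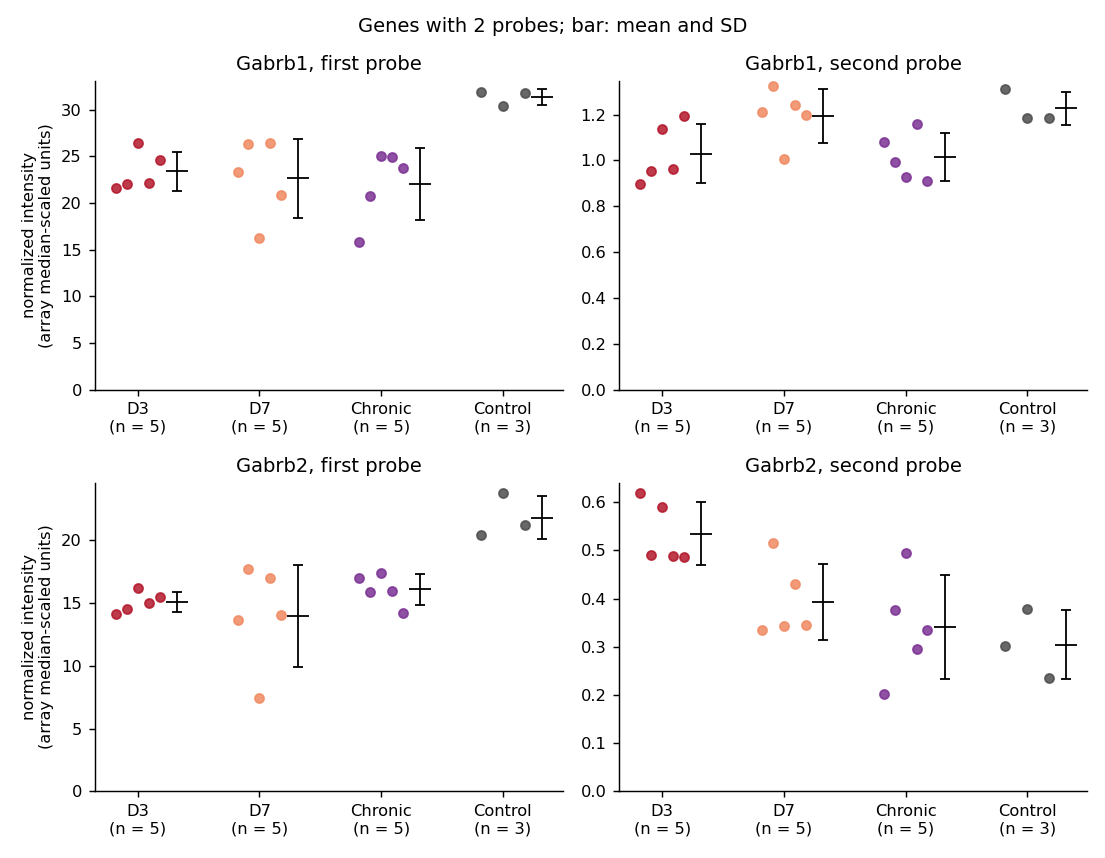
Normalized intensity of the first and second probes of Gabrb1 (top) and Gabrb2 (bottom), 1 point per array in D3, D7, Chronic and Control, with mean and SD. The first probe of Gabrb2 is lower in all pilocarpine arrays, and its second probe, at 0.202 to 0.619, is higher than Control in D3.

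No subunit passed between the times after SE. The 6 log2 fold changes lay between -0.17 and 0.12 for D7 relative to D3, between -0.10 and 0.47 for Chronic relative to D3, and between -0.04 and 0.35 for Chronic relative to D7, and limma passed 0 of 6 in each. At an unadjusted p under 0.05 the counts were 0, 1 and 0, and the t-test named in the methods gave 0, 2 and 0 at that level. The 1 gene was Gabra3, at 0.47 in Chronic relative to D3 (95% confidence interval 0.09 to 0.85, adjusted p = 0.185). Over all probes 0.885%, 2.72% and 0.178% passed in these comparisons. A subunit that passed in D7 and not in Chronic is therefore not shown to differ between them. For Gabrd, for example, Chronic relative to D7 was 0.17 with an interval of -0.29 to 0.63.

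When the first probes of the 6 subunits were averaged, each pilocarpine rat was below the Control mean. Their mean log2 difference from the Control mean was -0.78 to -0.50 in D3, -1.18 to -0.30 in D7 and -0.52 to -0.38 in Chronic, against -0.04 to 0.03 in the Control arrays. The D7 rats differed most among themselves, and D7 replicate 33 had the lowest average of all arrays. In 13 of the 15 pilocarpine arrays the first probes of all 6 subunits were below their Control mean. In the other 2 arrays 5 of 6 were, and Gabra4 was above it. The share of all probes with this pattern was not counted, and their median fold change was itself negative (-0.12, -0.06 and -0.08). The list was chosen with earlier results known, and these values hold for the reported scaling. With quantile normalization the median log2 fold change of the 6 was -0.47, -0.47 and -0.31 in D3, D7 and Chronic.

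General neuronal markers were lower in the same arrays. Of the 6 measured pan-neuronal markers 5 passed as lower in D3, 4 in D7 and 3 in Chronic, among them Nefm, a neurofilament subunit (-1.26, -0.99 and -0.83), and Eno2, the neuronal enolase (-0.56, -0.47 and -0.41). With quantile normalization the counts were 3, 1 and 2. Stmn2, another of these markers, did not pass in D3 by its second probe (-0.30, adjusted p = 0.151). That probe was lower in D7 and in Chronic (-0.57 and -0.50, adjusted p = 0.0127 and 0.0289). The probe of Snap25, a synaptic marker in this list, had a good spot on 1 of 18 arrays. Their mean log2 difference from Control was -0.79 to -0.32 in D3, -0.83 to -0.18 in D7 and -0.77 to -0.37 in Chronic. The mean of the subunits minus that of the neuronal markers was -0.20 to 0.05 in D3, -0.35 to 0.22 in D7 and -0.11 to 0.31 in Chronic. Without Snap25, left out after its values were seen, this difference was 0.05 to 0.35 in D3, -0.12 to 0.22 in D7 and -0.25 to 0.45 in Chronic, so that its mean in D3 turned to 0.17, against -0.04 with all 6 markers. In whole hippocampus, fewer neurons and less RNA per neuron cannot be told apart, and the part of this shift in the results of the subunits was not tested.

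**Figure D4:**
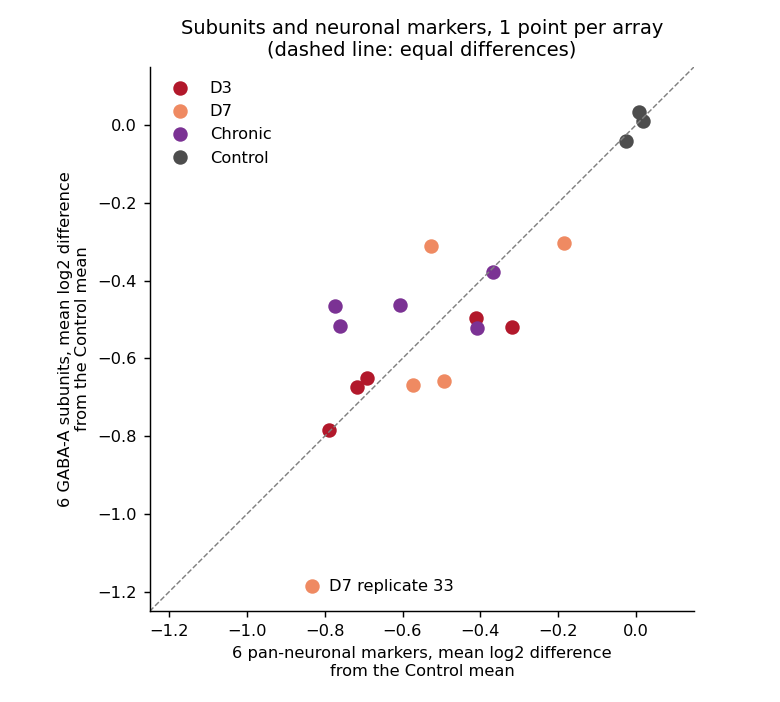
Mean log2 difference from the Control mean of the 6 measured subunits (vertical) and of 6 pan-neuronal markers (horizontal), 1 point per array, with a dashed line where both are equal. Pilocarpine arrays lie at -1.18 to -0.30 on the vertical axis and -0.83 to -0.18 on the horizontal axis, on both sides of the line, and Control arrays lie near 0.

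Other cell type markers moved as follows. Of 4 granule cell markers, 2 were lower in D3, 1 in D7 and 2 in Chronic. Calb1, calbindin, was lower at all 3 times (-1.35, -0.90 and -1.27). Prox1, the transcription factor of granule cells, was lower in D3 (-0.76, adjusted p = 0.00413), with -0.40 in D7 (adjusted p = 0.118) and 0.51 in Chronic (adjusted p = 0.0561), and it was higher in Chronic relative to D3 (1.27, adjusted p = 7.97e-05) and relative to D7 (0.90, adjusted p = 0.0155). Of 9 interneuron markers, 5 were lower and 1 higher in D3, and 4 were lower in D7 and in Chronic. Gad1, which makes GABA, was at -0.57, -0.75 and -0.65, and Slc32a1, which loads GABA into vesicles, at -0.76, -0.50 and -0.59, all passing. The higher one was the neuropeptide Npy in D3 (1.40, adjusted p = 0.0421). Gad2, of the same list, passed at no time (0.12, -0.04 and -0.16, adjusted p = 0.781, 0.928 and 0.727). The second probe of Gad2 did not pass either (-0.37 in D3, adjusted p = 0.191). Of 3 excitatory neuron markers, 2 were lower in D3 and 1 in D7 and in Chronic. Camk2a, lower in D3 by its first probe (-1.14), did not pass by its second (-0.58, adjusted p = 0.154). Of 7 astrocyte markers, 4 were higher and 1 lower in D3, 2 higher in D7 and 1 higher in Chronic. With quantile normalization the counts of lower genes were 2, 0 and 2 of 4 for granule cells, 3, 1 and 2 of 9 for interneurons and 2, 0 and 0 of 3 for excitatory neurons, and 4, 4 and 2 of 7 astrocyte markers were higher. At the 75th percentile 4, 2 and 2 interneuron markers were lower, and 1 granule cell marker was higher in Chronic.

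Of 9 other measured GABA-A subunits, 2 were lower in D3, 1 in D7 and 2 in Chronic, and none was higher. The probes of 5 of them, Gabra6, Gabre, Gabrp, Gabrr1 and Gabrr3, had good spots on at most 2 of 18 arrays, so that these counts are not comparable with those of the better measured subunits. With quantile normalization 2, 2 and 0 of the 9 were lower, and at the 75th percentile 2, 1 and 0. Gabrr2, which encodes a rho subunit, was lower at all 3 times (-0.86, -0.65 and -0.52, adjusted p = 0.000686, 0.00774 and 0.0266). Gabrq, the theta subunit, was lower in D3 (-0.56, adjusted p = 0.00868) and in Chronic (-0.48, adjusted p = 0.0292), with -0.39 in D7 (adjusted p = 0.0771). A second probe of Gabrr2 was lower in D7 (-0.82, adjusted p = 0.0342) and in Chronic (-0.99, adjusted p = 0.0159), with -0.45 in D3 (adjusted p = 0.239). Gabrg1, a gamma subunit with good spots on all 18 arrays, passed at no time (-0.08, -0.06 and -0.13, adjusted p = 0.851, 0.884 and 0.736). Neither did Gabrg3, another gamma subunit, with good spots on 9 arrays (-0.05, 0.08 and 0.13, adjusted p = 0.943, 0.896 and 0.839).

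Genes that anchor GABA-A receptors or carry them to the membrane were partly lower. Of 16 measured, 7 were lower and 2 higher in D3, 7 were lower in D7, and 5 were lower and 1 higher in Chronic. Shisa7, an auxiliary subunit of the receptor, was lower at all 3 times (-0.91, -0.90 and -0.62), and so was Lhfpl4, which holds receptors at inhibitory synapses (-0.50, -0.47 and -0.60). Hap1, huntingtin-associated protein, had the largest decrease of the list in Chronic (-1.16, adjusted p = 0.000432), where its second probe was lower too (-1.46, adjusted p = 0.00456). Nsf, the ATPase of membrane fusion, was lower in D3 and D7 (-0.70 and -0.63), and so was Ubqln1, which spares subunits from degradation (-0.38 and -0.37). Iqsec3, a partner of gephyrin, and Trak1, a motor adaptor, were lower in D3 (-0.76 and -0.57) and in Chronic (-0.60 and -0.50). The second, dim probe of Trak1 had the opposite sign and did not pass (0.49 in D3 and 0.71 in Chronic). Gphn, the scaffold gephyrin, was lower in D7 (-0.33, adjusted p = 0.0473), and its second probe in D3 and D7 (-0.44 and -0.45). Zdhhc3, a palmitoyltransferase, was lower in D7 (-0.30, adjusted p = 0.0275), whereas its second probe was higher in D3 (0.38, adjusted p = 0.0429). Rdx, radixin, which anchors alpha5 receptors outside the synapse, was higher in D3 (0.63) and in Chronic (0.36, adjusted p = 0.0230), and Trak2, another motor adaptor, was higher in D3 (0.63, adjusted p = 0.0130). Second probes with good spots on all 18 arrays did not pass for Ubqln1 in D3 (-0.06, adjusted p = 0.789) and D7 (-0.22, adjusted p = 0.234), for Trak2 in D3 (0.35, adjusted p = 0.175), for Nsf in D3 (-0.44, adjusted p = 0.0660) and for Iqsec3 in Chronic (-0.48, adjusted p = 0.0594). Nor did that of Zdhhc3 in D7 (-0.012, adjusted p = 0.964). Hap1, lower in D3 and D7 by its first probe, did not pass there by its second (-0.61 and -0.22, adjusted p = 0.157 and 0.659).

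For the GABA-B receptor, the G protein-coupled receptor of slow inhibition, 3 of 5 genes were lower in D3, 3 in D7 and 1 in Chronic. Both receptor subunits fell, Gabbr1 at all 3 times by its first probe (-0.64, -0.52 and -0.38) and Gabbr2 in D3 and D7 (-0.51 and -0.47), with -0.18 in Chronic (adjusted p = 0.432). The auxiliary subunit Kctd8 fell in D3 and D7 (-0.74 and -0.55). Kctd12 (0.27, 0.09 and 0.12) and Kctd16 (0.05, 0.06 and 0.35), also of this list, had positive values and passed at no time. None of the 4 measured glycine receptor genes passed in limma at any time. With quantile normalization the counts of lower genes in D3, D7 and in Chronic were 5, 1 and 2 of 16 for anchoring and trafficking and 2, 0 and 0 of 5 for the GABA-B receptor, and at the 75th percentile 7, 2 and 3 of 16 and 3, 1 and 0 of 5, with no change of sign among genes that had passed.

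**Figure D5:**
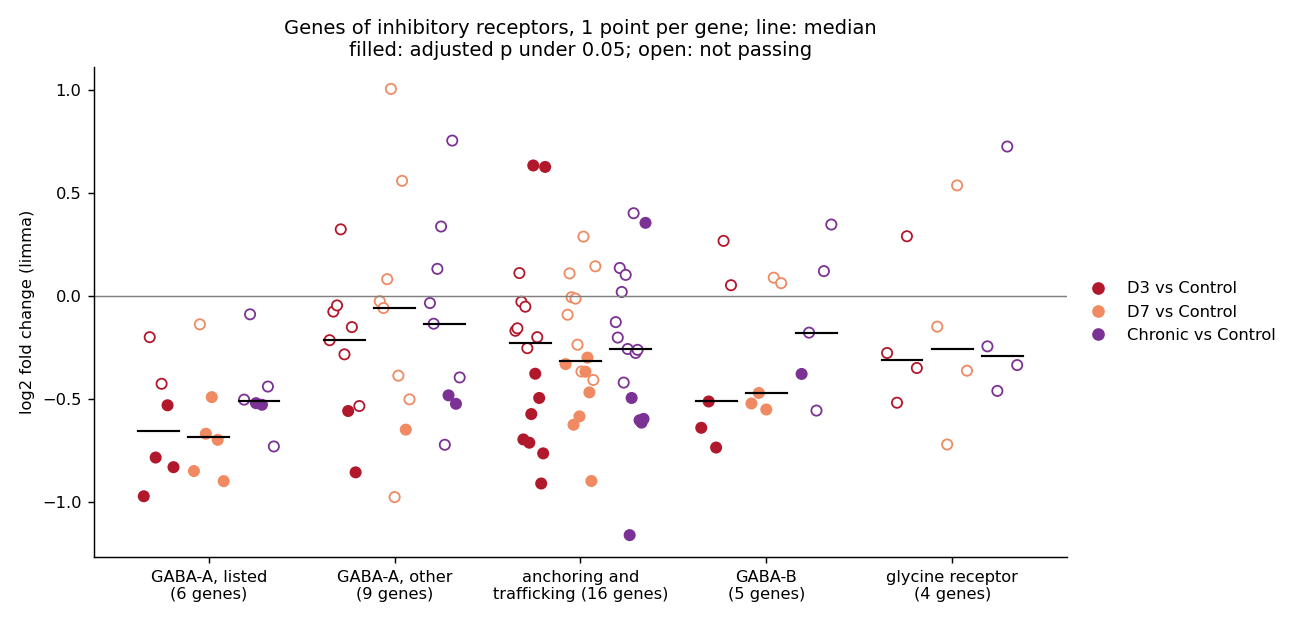
Log2 fold change relative to Control of each measured gene in 5 lists, 1 point per gene in D3, D7 and Chronic, with the median as a line. Filled points passed at an adjusted p under 0.05, and the medians of the listed GABA-A subunits were -0.66, -0.68 and -0.51, whereas 5 of the 9 other GABA-A subunits lie on probes with good spots on at most 2 arrays.

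The subunits also varied together between arrays. Across the 18 arrays Pearson's r between subunits was highest for Gabra5 and Gabrb2 (0.88) and for Gabrb2 and Gabrd (0.88), and lowest for Gabra4 and Gabrd (0.23). After subtracting the group means it was 0.88 for Gabra5 and Gabrb2, 0.87 for Gabra5 and Gabrb1, and 0.00 for Gabra4 and Gabrd. These are descriptions over arrays that share a scaling constant each, and D7 replicate 33 was the lowest of all arrays for Gabra3, Gabra5, Gabrb2 and Gabrd. Without it, r across the other 17 arrays was 0.87 for Gabra5 and Gabrb2, 0.85 for Gabrb2 and Gabrd, and 0.20 for Gabra4 and Gabrd. Gabrb1 and Gabra4 lie next to each other on chromosome 14 on opposite strands, and their r was 0.45.

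Among 8387 other named genes with good spots on all arrays, those most like Gabra5 over the 18 arrays were Ppp1r13b (r = 0.97), Srcin1 (0.96) and Snrpn (0.96). For Gabrb1 they were Vamp4, Aak1 and Ggt7 (0.96 each), and for Gabrb2 Klhl23 (0.95), Susd4 (0.93) and Ypel5 (0.93). Gabra3 was most like Mapt (0.93), which encodes tau, and then Sos2 and Atp2a2 (0.91 each). Gabrd was most like Arhgef4, Itfg1 and Inpp1 (0.90, 0.90 and 0.89). Gabra4 was most like Rab2a (0.88), Edem3 (0.83) and Drosha (0.81). No gene was among the 3 of more than 1 subunit.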

How the data were processed

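The samples were rat hippocampi hybridized to 1-colour CodeLink Rat Whole Genome arrays, 5 arrays each for D3, D7 and Chronic and 3 for Control, grouped by the labels, with 1 array per rat. The authors quantified the arrays with GenePix and CodeLink software, subtracted the background and deposited each normalized intensity on a linear scale, which the files show to be the raw intensity divided by 1 constant per array (97.3 to 189.8). Spots with flags other than good (G) or low (L), 0.699% of gene spots, were left out. Between 66.0% and 76.0% of gene spots per array were flagged G. Values under the percentile 1 of an array's positive values were raised to it, and the log2 values of all 4 groups entered a single linear model (limma 3.58.1, R 4.3.3, eBayes with trend), with p-values adjusted by Benjamini and Hochberg over 33800 probes. The median residual SD was 0.29 on the log2 scale, and the number of arrays limits the precision. The script was tested on simulated data first.

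Named genes were all members, with the probe of the highest mean log2 value standing for a gene with 2 or more, the genes of the lists of receptor subunits, receptor partners and cell type markers that passed or set a range, and the 3 genes most correlated with each member. Members and lists were chosen with earlier results of these data known. Gene symbols came from the platform annotation, and some list genes are not reported here. Promoters came from RefSeq (GRCr8). Python 3.11.15 was used for tables and figures. Alternatives were other scalings, flags, floors, control arrays, priors, probes and tests, and each array left out in turn. The limma p-values rest on the spread between arrays within groups, pooled over all 4 groups. Its Control part includes any difference between the 3 times.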

Additional observations from a re-analysis of the deposited data

Results flagged for a closer look

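One value stood apart from its group. In Chronic replicate 44 the intensity of Gabrd was 0.460, against 0.721 to 0.834 in the other 4 Chronic arrays, which Dixon's test at the 95% level set apart on the log2 values (gap over range 0.756, limit 0.710). On the linear intensities the gap over range was 0.699, under the limit. With 24 groups of 5 tested, chance is expected to flag about 1 in 20.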

How the results depend on the processing

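The fit without a floor left the counts of subunits passing at 4, 5 and 2 in D3, D7 and in Chronic. The series value table gave the same counts, but its lines were matched to the array files by identical values, so its fit could not differ. Quantile normalization gave 2, 3 and 0, and scaling at the 75th percentile gave 3, 4 and 1. With the time-matched control array, an arm of 1 array, the median log2 fold change of the 6 was -0.61, -0.77 and -0.45. The fit with only the groups compared gave 5, 0 and 4. The fit with no trend in the prior gave 3, 4 and 0, and the mean over probes gave 4, 3 and 2. The t-test named in the methods gave 5 in Chronic and 2 for Chronic relative to D3 unadjusted, and 0 in D7 after Benjamini-Hochberg adjustment. A limit of 2-fold beside the p threshold, counted after seeing the data, gave 0 at each time. Leaving out 1 array gave 2 to 5 in D3, 1 to 5 in D7 and 0 to 4 in Chronic. In D3 the count was 2 without any 1 Control array, in D7 it was 2, 1 and 3 without Control replicate 26, 36 and 47, and in Chronic it was 0 without any 1 Control array or Chronic replicate 41 or 42, 1 without D3 replicate 14 or Chronic replicate 45, 3 without D7 replicate 34 and 4 without D7 replicate 33. The median fold change over all probes was 0.05 in D7 and 0.03 in Chronic with scaling at the 75th percentile, and -0.06 and -0.08 as reported.

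No fold change that had passed changed sign, except that of Gabrb2 in D3 with the mean of its probes (0.15). Of those that had not passed, relative to Control, Gabra4 turned to 0.051 in D7 and 0.11 in Chronic with quantile normalization, 0.10 in D7 with the time-matched control, and 0.021 in Chronic at the 75th percentile. The second probe of Gabrb1 in D7 turned to 0.066 at the 75th percentile and 0.0073 with the time-matched control, and the second probe of Gabrb2 in Chronic to -0.018 with quantile normalization. Between times, Gabra3 for D7 relative to D3 turned to -0.022 with quantile normalization, Gabrb1 for D7 relative to D3 to 0.077 and Gabrb2 for Chronic relative to D3 to -0.31 with the mean of probes, and Gabrd to 0.15 for D7 relative to D3 and -0.046 for Chronic relative to D7 with good spots only. Leaving out 1 array moved Gabra4 over -0.21 to 0.017 in Chronic, -0.0056 to 0.14 for D7 relative to D3 and -0.024 to 0.092 for Chronic relative to D7, and Gabra5 over -0.012 to 0.24 for Chronic relative to D7. It moved Gabrb1 over -0.13 to 0.049 for D7 relative to D3, -0.15 to 0.013 for Chronic relative to D3 and -0.15 to 0.078 for Chronic relative to D7, and its second probe over -0.081 to 0.019 in D7. It moved Gabrb2 over -0.27 to 0.043 for D7 relative to D3 and its second probe over -0.045 to 0.30 in Chronic, and Gabrd over -0.22 to 0.15 for D7 relative to D3 and -0.046 to 0.32 for Chronic relative to D7.

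No paired analysis was possible because no replicate number occurs in more than 1 group. Normexp background correction and a slide or scan block were not run, since the columns used hold background-subtracted values and no slide or scan. The cause of these differences was not tested. Dim probes limit the values of Gabra3 and of the second probe of Gabrb2.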
